A study of Mus musculus with 12 samples.

Results

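The TSC22 domain family of the mouse consists of 4 genes, Tsc22d1, Tsc22d2, Tsc22d3 and Tsc22d4, and all 4 were found by their Ensembl identifiers among the 37991 genes of the count table. Tsc22d1 was chosen by its measured difference between genotypes, which appeared only after activation, so its values in the genotype comparisons, and its activation values in each genotype, are given as a description with no test. The other 3 members entered because they belong to the family.

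The RNA came from splenic B cells of 8-week-old mice, on a C57B6 background as the study's methods give it, and 12 libraries of polyadenylated RNA were sequenced, 3 per group. Every group, controls included, carried the CD23-iCre transgene, whose promoter drives the recombinase in B cells from the transitional stage on. Cre-only cells carried the transgene with an intact Runx1 gene, and Runx1 c-k/o cells carried it with a Runx1 allele whose exon 4 is flanked by LoxP sites. Cells of both genotypes were taken as resting B cells (0 h), isolated by negative selection that also removes CD43+ activated cells, or after 3 h with anti-IgM, which crosslinks the BCR, and IL-4. The question for this family was how its transcript levels differed with activation and with the loss of Runx1.

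Proteins of this family share a short conserved stretch, the TSC box and a leucine zipper, through which they form homodimers and heterodimers. They lack a classical DNA-binding domain and act largely by binding other proteins. Tsc22d1 was identified as a gene induced by TGF-beta. Long isoforms of Tsc22d1, Tsc22d2 and Tsc22d4 bind the pseudokinase NRBP1 and WNK kinases, which control cell volume. Tsc22d3 encodes GILZ, a glucocorticoid-induced protein that is a transcriptional target of the glucocorticoid receptor and of FOXO factors, and that binds NF-kB and AP-1 subunits and members of the Ras-Raf pathway.

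The conserved stretch is shown first because it defines the family and because similarity between members could matter for read counting. The lines give 219 coding bases of mm9 Ensembl transcripts, aligned without gaps, and capitals mark the 108 bases that are identical in all 4 genes.
Tsc22d1: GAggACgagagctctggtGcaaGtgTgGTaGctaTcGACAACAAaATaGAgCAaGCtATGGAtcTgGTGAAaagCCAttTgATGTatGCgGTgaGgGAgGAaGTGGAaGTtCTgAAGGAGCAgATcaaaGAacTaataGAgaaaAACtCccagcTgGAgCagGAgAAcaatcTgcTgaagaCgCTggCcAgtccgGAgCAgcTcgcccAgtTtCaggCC
Tsc22d2: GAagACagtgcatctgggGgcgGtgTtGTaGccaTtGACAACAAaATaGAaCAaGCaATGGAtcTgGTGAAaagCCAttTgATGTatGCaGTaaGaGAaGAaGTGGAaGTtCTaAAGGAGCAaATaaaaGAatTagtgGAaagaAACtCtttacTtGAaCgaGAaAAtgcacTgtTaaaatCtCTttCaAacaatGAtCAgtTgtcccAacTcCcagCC
Tsc22d3: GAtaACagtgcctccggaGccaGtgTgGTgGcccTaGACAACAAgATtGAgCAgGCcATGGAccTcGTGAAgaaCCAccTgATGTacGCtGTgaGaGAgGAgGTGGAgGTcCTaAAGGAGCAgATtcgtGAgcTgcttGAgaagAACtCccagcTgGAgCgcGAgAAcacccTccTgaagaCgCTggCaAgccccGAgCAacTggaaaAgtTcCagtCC
Tsc22d4: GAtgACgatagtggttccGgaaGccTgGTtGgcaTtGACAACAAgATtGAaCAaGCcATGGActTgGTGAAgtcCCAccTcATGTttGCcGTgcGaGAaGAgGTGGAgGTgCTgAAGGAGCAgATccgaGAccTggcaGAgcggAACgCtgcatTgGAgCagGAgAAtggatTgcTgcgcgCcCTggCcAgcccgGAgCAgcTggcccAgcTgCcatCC
Within this stretch the closest pair was Tsc22d1 and Tsc22d3, identical at 164 of 219 bases (74.9%), and the most distant pair was Tsc22d2 and Tsc22d4, identical at 139 bases (63.5%). Over whole coding transcripts, untranslated parts included, the longest run of identical bases was 32 between Tsc22d1 and Tsc22d2 and 12 to 16 in the other pairs. In each gene the stretch spans 3 coding exons, and most of it, 159 bases, lies in the last of them. That block is at chr14:76906224-76906382 (plus strand) in Tsc22d1, chr3:58263930-58264088 (plus strand) in Tsc22d2, chrX:137075488-137075646 (minus strand) in Tsc22d3 and chr5:138200295-138200453 (plus strand) in Tsc22d4, all in mm9.

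The genes themselves lie on 4 chromosomes. In mm9, Tsc22d1 (ENSMUSG00000022010) occupies chr14:76814768-76907569 on the plus strand, with 11 annotated transcripts of which 7 are coding. Tsc22d2 (ENSMUSG00000027806) occupies chr3:58219437-58270709 on the plus strand, with 2 coding transcripts. Tsc22d3 (ENSMUSG00000031431) occupies chrX:137074067-137135198 on the minus strand, with 6 transcripts. Tsc22d4 (ENSMUSG00000029723) occupies chr5:138186958-138209678 on the plus strand, with 10 transcripts. Overlap with another annotated gene was found for 0 of the 4. The counts are per gene, so long and short isoforms, and the start sites they use, were not separated.

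The windows of 250 bases before and 50 bases after annotated starts (RefSeq, GRCm38.p6) were searched on both strands for the RUNX motif TGTGGT, the FOXO motif TGTTTAC and the palindromic glucocorticoid response element. Windows were found for Tsc22d1 (5) and Tsc22d3 (3). The RUNX letters occurred in 1 window of each gene, against 16.8% of all 32851 windows. The FOXO and glucocorticoid receptor letters occurred in 0 of the 8 windows, against 3.6% and 0.5% of all windows. For Tsc22d1, the member with the genotype difference, the 250 upstream bases of the window with a RUNX match (in capitals, 141 bases before the start) and of the window at the start of the short coding transcript Tsc22d1-001, which has no match, read as follows on the plus strand.
Tsc22d1 window 3: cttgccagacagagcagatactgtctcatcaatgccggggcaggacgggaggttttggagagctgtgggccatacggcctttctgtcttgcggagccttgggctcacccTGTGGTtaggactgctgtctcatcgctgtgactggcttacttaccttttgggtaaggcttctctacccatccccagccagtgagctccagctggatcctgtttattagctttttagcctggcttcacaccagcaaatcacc
Tsc22d1 window 5: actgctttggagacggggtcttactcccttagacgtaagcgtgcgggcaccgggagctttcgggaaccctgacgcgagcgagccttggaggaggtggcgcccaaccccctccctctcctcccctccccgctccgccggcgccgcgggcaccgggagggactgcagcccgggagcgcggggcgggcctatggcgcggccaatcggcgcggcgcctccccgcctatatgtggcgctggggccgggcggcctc
Window 3 spans chr14:76488186-76488485 and window 5 chr14:76504260-76504559 in GRCm38.p6. Their letters match mm9 exactly at chr14:76887993-76888292 and chr14:76904067-76904366. A match of letters is a description of the window and not evidence of binding.

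Levels are given as normalized CPM, that is, counts scaled to a common library size with TMM factors, which set aside the most extreme genes. Libraries held 14442251 to 23641552 counts, so a floor of 3 counts corresponds to 0.127 to 0.208 CPM before normalization, and every member lay far above it in every sample. These floors cover counting error only. B cell markers were high in all libraries (summed 14952 to 31964 normalized CPM over the 9 markers measured), and neutrophil markers summed to at most 6.26. Monocyte and macrophage markers summed to 213 to 424 at rest and 17.6 to 46.8 at 3 h. Csf1r led them except in 3-h Cre-only samples, where Adgre1 did. Lck made up most of the T cell marker sum at rest (33.7 to 46.1) and at 3 h (67.6 to 88.5). Runx1 counts cover all its exons, so they do not isolate the deleted exon. At rest Runx1 was at 83.6, 81.8 and 86.7 normalized CPM in Cre-only samples and 101, 95.7 and 103 in Runx1 c-k/o samples, and the 3-h levels were 38.5, 37.0 and 34.9 against 47.3, 70.6 and 74.5. Transcripts from the targeted gene were therefore not lower in the cells labelled Runx1 c-k/o. At 3 h they were higher (log2 0.80, edgeR adjusted p = 0.0077), where 2.77% of all tested genes were called. That call was lost with the 3-h groups alone (edgeR adjusted p = 0.099). At rest the log2 difference was 0.25 (edgeR adjusted p = 0.55), and 0.33 with 1 factor of unwanted variation in the model (edgeR adjusted p = 0.013).

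Among genes that fell strongly, the 3-h Runx1 c-k/o replicate 2 stood apart in a way that touches this family. Over all genes, replicate 1 of that group differed more from the others. The chi-square per degree of freedom of its counts was 57.6 against replicate 2 and 80.6 against replicate 3, and 13.35 between replicates 2 and 3. Replicate 1 also had the lowest TMM factor of the 12 libraries (0.886). It was the highest of the 3 replicates for 41.1% of all 13538 tested genes, and replicate 2 for 25.5%. Of 351 genes with a log2 fold change of -4 or lower on activation in Cre-only cells, replicate 2 was the highest for 302 (86.0%). Its Fos level was 45.1 normalized CPM against a mean of 4.74 in replicates 1 and 3, and its Klf2 level was 82.5 against 22.6. The difference amounted to 5.47% of the resting Runx1 c-k/o level for Fos and 5.17% for Klf2. In the other genes compared in this way it was 4.64% for Jun, 6.10% for Rhob, 6.23% for Dusp1 and 8.80% for Csf1r. For Tsc22d3 it was 5.11%, for Tsc22d2 3.56%, for Tsc22d4 2.25% and for Tsc22d1 1.44%. The fold changes of Tsc22d3 that use replicate 2, and the 3-h difference of Fos, are given with and without it. Activation values of the list genes are given with all 12 libraries. Leaving out 1 library in turn moved them between -7.66 and -6.45 for Fos, -5.41 and -4.92 for Jun, and -4.70 and -4.26 for Rhob.

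All 4 members fell on activation, relative to the counted mRNA. Averaged over both genotypes, the log2 fold change was -4.91 for Tsc22d3, -2.25 for Tsc22d1, -1.40 for Tsc22d4 and -0.69 for Tsc22d2. Without the library that stood apart, Tsc22d3 was at -5.21. In each gene and each genotype, all 3-h samples lay below all resting samples. These 4 calls are read against a broad response, since 82.2% of the 13538 tested genes passed the same test. Those that passed downward were 40.5% of the 13538, and in 33.9% the samples fell without overlap in both genotypes. The sizes differ more than the calls do. Counted from the largest fall, Tsc22d3 ranked 104 of 13538 genes, Tsc22d1 1300, Tsc22d4 2622 and Tsc22d2 4222. Bulk counts cannot tell apart fewer cells of a type from less RNA per cell. Over the same interval, marker sums of monocytes, B cells, NK cells, dendritic cells and platelets fell without overlap in both genotypes. T cell sums rose without overlap in both. Sums of plasma cells, erythroid cells and neutrophils overlapped between the times in Cre-only or Runx1 c-k/o samples. The part of these cell types in the falls was not tested.

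**Figure D1:**
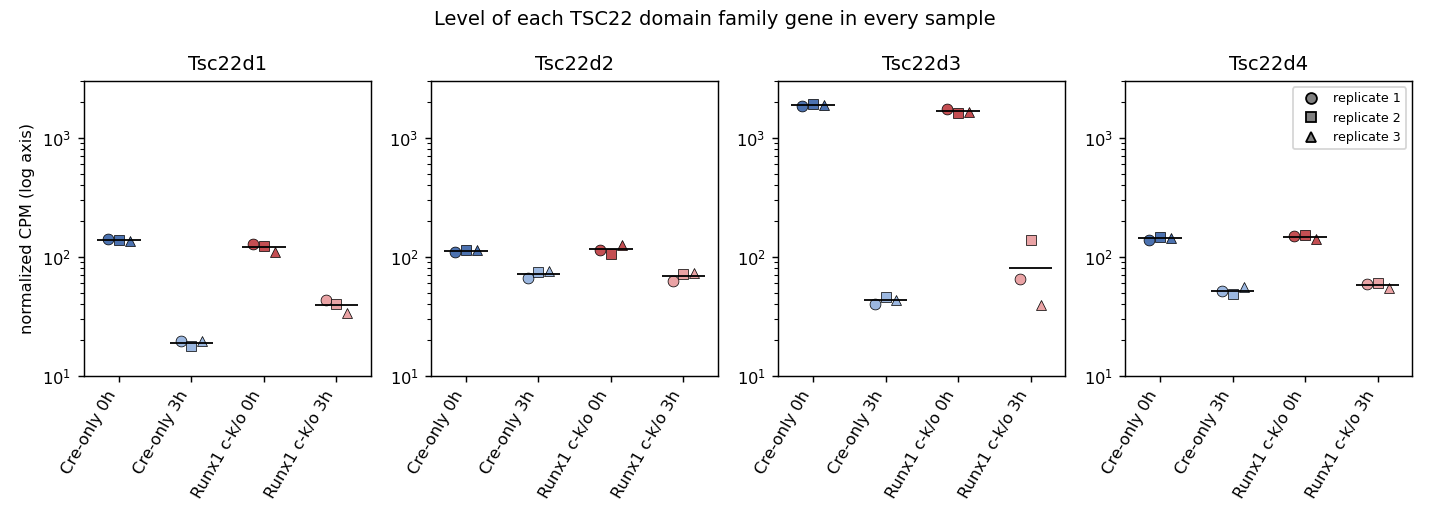
Normalized CPM (log axis) of each TSC22 domain family gene in the 12 samples, by group. Points are samples (shape gives the replicate number), and black bars are group means of 3 samples. All 4 genes lie lower at 3 h than at rest in both genotypes, the 3-h Runx1 c-k/o samples of Tsc22d1 lie above those of Cre-only cells, and the 3-h Runx1 c-k/o samples of Tsc22d3 range from 39.4 to 138.

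Tsc22d3, the GILZ gene, was the most abundant member and had the largest fall. At rest its levels were 1859, 1924 and 1884 normalized CPM in the Cre-only samples and 1745, 1630 and 1636 in the Runx1 c-k/o samples. At 3 h the Cre-only samples were at 40.3, 45.9 and 43.6, and the Runx1 c-k/o samples at 65.4, 138 and 39.4. Resting levels were tight within each genotype, while at 3 h the Runx1 c-k/o samples spread widely around the narrow Cre-only range, with replicate 2 highest and replicate 3 lowest. The fall was 43.7-fold in Cre-only cells (log2 -5.45 ± 0.38 SE, edgeR adjusted p = 9.5e-08) and 20.7-fold in Runx1 c-k/o (log2 -4.37 ± 0.36 SE, edgeR adjusted p = 4.0e-07). The same test called 75% of genes in Cre-only cells and 74.3% in Runx1 c-k/o cells. Without the 3-h Runx1 c-k/o replicate 2, the log2 fold change in Runx1 c-k/o cells was -4.98 (edgeR adjusted p = 1.1e-08).

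The genotype comparisons of Tsc22d3 did not pass the threshold. At rest all 3 Runx1 c-k/o samples were below all 3 Cre-only samples, but the log2 difference was small, -0.18 (95% confidence interval -0.85 to 0.50, edgeR adjusted p = 0.84). At this stage the same test called 1.49% of genes, and samples did not overlap in 23.7% of genes. The width of that interval includes the spread of the 3-h samples, because the 4 groups share an estimate of the spread. With the resting groups alone the difference was -0.20 (edgeR adjusted p = 0.34). At 3 h the log2 difference was 0.90 (95% confidence interval 0.21 to 1.60, edgeR adjusted p = 0.19), with overlapping samples. This value rested on single libraries of the Runx1 c-k/o group. It was 0.28 (edgeR adjusted p = 0.40) without replicate 2 and 1.23 (edgeR adjusted p = 0.016) without replicate 3. The difference between the genotype effects at 3 h and at rest was 1.08 (95% confidence interval 0.11 to 2.05, edgeR adjusted p = 0.88), and 0.45 without replicate 2 (edgeR adjusted p = 1.00).

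Tsc22d1, the TGF-beta-induced member, also fell in both genotypes, by unequal amounts. At rest its levels were 141, 138 and 136 normalized CPM in the Cre-only samples and 128, 123 and 110 in the Runx1 c-k/o samples. At 3 h the Cre-only samples were at 19.5, 17.8 and 19.5, and the Runx1 c-k/o samples at 42.9, 40.2 and 33.9. The genotypes did not overlap at either time, and their order was opposite, with Runx1 c-k/o samples lower at rest and higher at 3 h. Samples did not overlap in 23.7% of all tested genes at rest and in 21.8% at 3 h. Averaged over genotypes, a contrast the choice of this gene did not use, the log2 change on activation was -2.25 ± 0.07 SE (edgeR adjusted p = 2.6e-10). As a description, the fall was 7.29-fold in Cre-only cells (log2 -2.87) and 3.08-fold in Runx1 c-k/o cells (log2 -1.62). The description of the genotype difference is a log2 value of -0.20 at rest and 1.04 at 3 h, the latter a level 2.06-fold higher in Runx1 c-k/o cells.

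For Tsc22d1 the 3-h library that stood apart among strongly falling genes, Runx1 c-k/o replicate 2, was the middle sample of its group. Replicate 1, which differed more over all genes, was the highest, and without it the 3-h log2 difference was 0.99. Leaving out any of the 12 libraries in turn left the 3-h log2 difference between 0.99 and 1.13 and the resting difference between -0.24 and -0.14. Across all tested genes, the 3-h difference ranked 399 of 13538 from the highest, and the difference of the genotype effects between 3 h and rest (log2 1.24) ranked 218. These ranges and ranks describe the values that chose the gene and carry no test, so neither is support for the genotype difference.

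Markers of some cell types also differed between the genotypes. Plasma cell markers (4 of 4 measured, led by Xbp1 at 3 h) summed to 286 to 348 normalized CPM in the Cre-only samples and 398 to 439 in the Runx1 c-k/o samples at 3 h without overlap, and to 195 to 264 and 165 to 401 at rest. Erythroid markers (4 of 4, led by Hbb-b1) summed to 36.1 to 253 against 246 to 410 at rest and to 12.3 to 136 against 115 to 203 at 3 h, with overlap at both times. B cell marker sums were higher without overlap in Runx1 c-k/o samples at rest (25523 to 26527 against 27952 to 31964) and at 3 h (14952 to 15508 against 15648 to 20103), and platelet marker sums were higher at 3 h (3.27 to 3.44 against 3.71 to 4.59). In these 4 lists, 0 markers were at 3 counts or fewer in every sample of a group. Their part in the genotype values of Tsc22d1 and of the other genes described here was not tested.

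**Figure D2:**
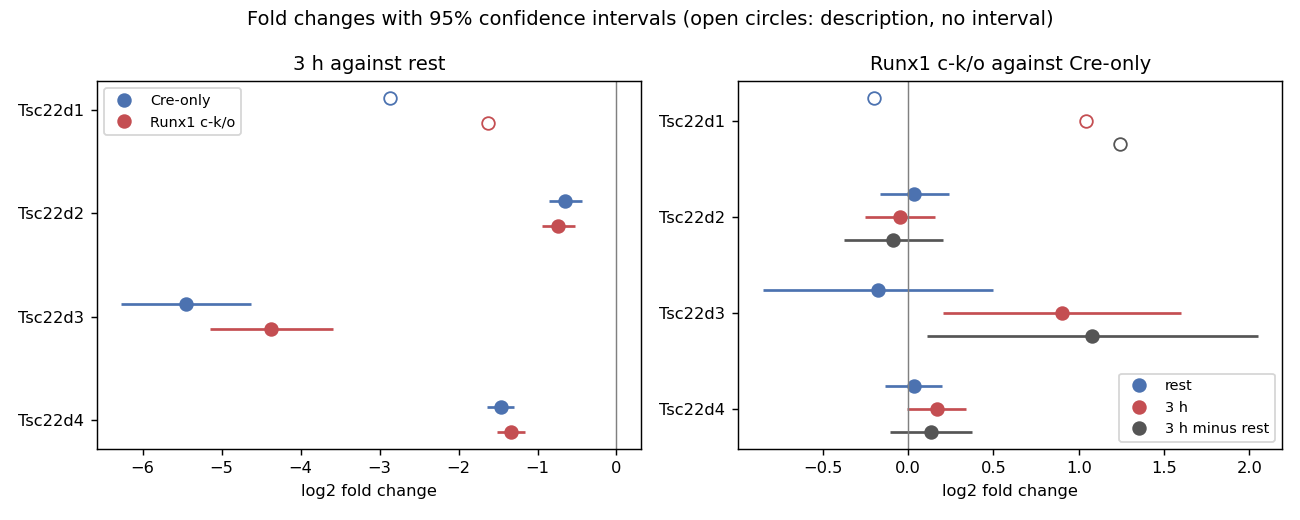
Log2 fold changes of the 4 genes for 3 h against rest in each genotype (left) and for the genotype comparison at rest, at 3 h and as the difference of these (right). Filled circles are edgeR estimates with 95% confidence intervals, and open circles are Tsc22d1 values given as a description with no interval. The Tsc22d3 intervals are the widest, and those of Tsc22d2 and Tsc22d4 at rest and at 3 h include 0.

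Tsc22d4, a member that pairs with NRBP1 and WNK kinases, fell to a similar extent in both genotypes. Its levels at rest were 139, 147 and 144 normalized CPM in the Cre-only samples and 149, 151 and 140 in the Runx1 c-k/o samples. At 3 h the Cre-only samples were at 51.1, 48.7 and 55.4, and the Runx1 c-k/o samples at 59.5, 60.3 and 54.5. The genotypes overlapped at both times. The log2 change on activation was -1.47 ± 0.08 SE in Cre-only cells (edgeR adjusted p = 2.1e-08) and -1.34 ± 0.08 SE in Runx1 c-k/o cells (edgeR adjusted p = 4.8e-08). The genotype difference was 0.03 at rest (95% confidence interval -0.14 to 0.20, edgeR adjusted p = 0.88) and 0.17 at 3 h (95% confidence interval -0.01 to 0.34, edgeR adjusted p = 0.32).

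Tsc22d2, the largest transcript unit of the family in exon length, had the smallest fall. Its levels at rest were 109, 114 and 115 normalized CPM in the Cre-only samples and 115, 106 and 126 in the Runx1 c-k/o samples. At 3 h the Cre-only samples were at 65.9, 74.7 and 75.4, and the Runx1 c-k/o samples at 62.8, 72.2 and 73.5. The genotypes were interleaved at both times. The log2 change on activation was -0.65 ± 0.09 SE in Cre-only cells (edgeR adjusted p = 4.5e-05) and -0.73 ± 0.09 SE in Runx1 c-k/o cells (edgeR adjusted p = 1.6e-05). The genotype difference was 0.04 at rest (95% confidence interval -0.17 to 0.24, edgeR adjusted p = 0.89) and -0.05 at 3 h (95% confidence interval -0.26 to 0.15, edgeR adjusted p = 0.80).

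Of the 3 members tested between genotypes, 0 passed the threshold at rest, at 3 h or in the difference of the 2 effects. The same test called 2.77% of genes at 3 h and 0.0813% in the difference of effects. The test of the difference of effects gave a log2 value of -0.09 for Tsc22d2 (95% confidence interval -0.38 to 0.20, edgeR adjusted p = 1.00) and 0.13 for Tsc22d4 (95% confidence interval -0.11 to 0.37, edgeR adjusted p = 1.00). At an unadjusted p under 0.05, the count was 0 of 3 at rest, and Tsc22d3 alone passed at 3 h and in the difference of effects. Of all tested genes, 11.1% lay under that value at rest, 16.2% at 3 h and 5.07% in the difference of effects. The DESeq2 Wald test called 0 of the 3 in any of these comparisons, with an adjusted p of 0.060 for Tsc22d3 at 3 h. Permuting 3 samples against 3 could reach no p below 0.1 for any gene taken by itself.

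The unequal falls changed the make-up of the family. Tsc22d3 accounted for 82.7% to 82.8% of the summed normalized CPM of the 4 genes at rest in Cre-only samples and 81.1% to 81.7% in Runx1 c-k/o samples. At 3 h its share was 22.5% to 24.5% in Cre-only cells and 19.6% to 44.4% in Runx1 c-k/o cells, or 19.6% and 28.4% in the replicates other than 2. Tsc22d2, which fell least, rose from 4.86% to 5.04% of the sum at rest to 37.2% to 39.9% at 3 h in Cre-only cells. The share of Tsc22d1 at 3 h was 9.50% to 11.03% in Cre-only cells and 12.9% to 18.6% in Runx1 c-k/o cells. The summed level of the family was on average 2283 normalized CPM at rest and 186 at 3 h for Cre-only, and 2053 and 247 for Runx1 c-k/o, where the 3-h value without replicate 2 was 216.

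**Figure D3:**
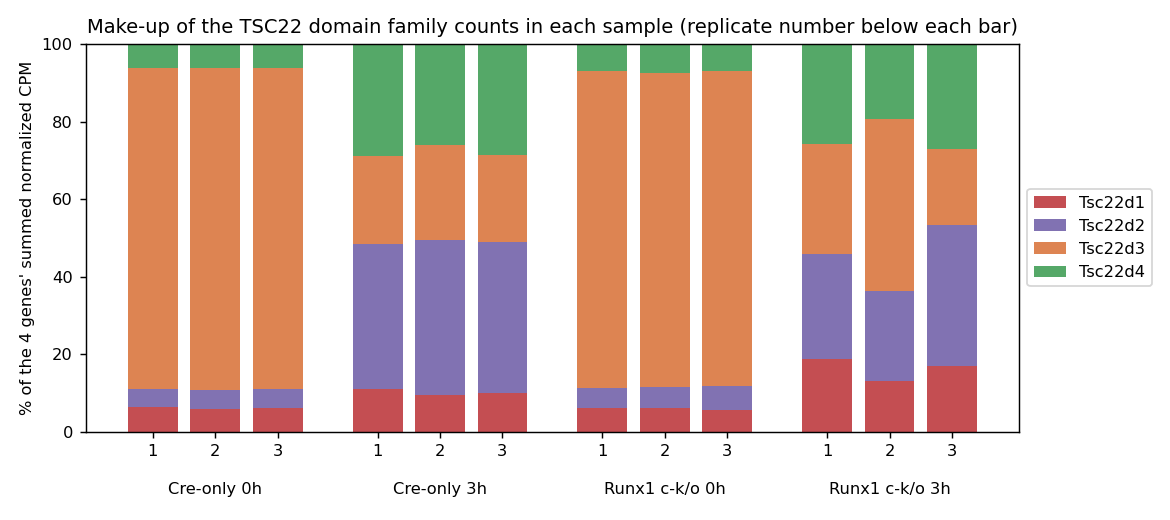
Share of the 4 genes' summed normalized CPM taken by each gene, for each of the 12 samples. Tsc22d3 takes over 80% of every resting bar and less than 50% of every 3-h bar, with the largest 3-h share (44.4%) in Runx1 c-k/o replicate 2.

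Compared per kilobase of merged exons, Tsc22d3 was the highest member in all 4 groups. In resting Cre-only cells its level was 435 ± 7.60 normalized CPM per kilobase (SD, n = 3), rank 104 among the 13514 tested genes with an annotated length, and the next member, Tsc22d1, was at 20.5 ± 0.343. Tsc22d4 followed at 19.1 ± 0.522 and Tsc22d2 at 12.5 ± 0.329, with no overlap between neighbours. In resting Runx1 c-k/o cells the order was Tsc22d3 (385 ± 14.9), Tsc22d4 (19.5 ± 0.790), Tsc22d1 (17.8 ± 1.37) and Tsc22d2 (12.8 ± 1.13), and the samples of Tsc22d4 and Tsc22d1 overlapped.

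At 3 h the members lay much closer together per kilobase. In Cre-only cells Tsc22d3 was at 9.96 ± 0.643 normalized CPM per kilobase (rank 5501), followed by Tsc22d2 (8.00 ± 0.592), Tsc22d4 (6.89 ± 0.451) and Tsc22d1 (2.81 ± 0.148). The samples of Tsc22d2 and Tsc22d4 overlapped. In Runx1 c-k/o cells Tsc22d3 was at 18.6 ± 11.7 (12.1 without replicate 2), Tsc22d4 at 7.73 ± 0.422, Tsc22d2 at 7.72 ± 0.652 and Tsc22d1 at 5.79 ± 0.685. Tsc22d4 and Tsc22d2 overlapped there too, and Tsc22d1 was lowest in both genotypes at 3 h.

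The genes whose pattern over the 12 samples was most like each member were found by Pearson correlation of log2 normalized CPM. The samples share 4 groups and their libraries, so these are descriptions. For Tsc22d1 they were Arhgef10 (r = 0.989), 1190002H23Rik (0.989), 1700029J07Rik (0.986), Pdlim7 (0.986) and Arhgap25 (0.985). Arhgef10 and Arhgap25 encode regulators of small GTPases. For Tsc22d2 the closest genes were Rap1gds1 (0.992), Mgat4a (0.991), Smc6 (0.991), Cpeb2 (0.990) and Inpp5f (0.990).

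For Tsc22d3 the closest genes were Maf (0.998), Rgs14 (0.998), Pecam1 (0.997), Cd2 (0.997) and Sik1 (0.997). Sik1, a salt-inducible kinase gene, went from 1072 to 65.7 normalized CPM in Cre-only cells. For Tsc22d4 the 4 closest were Fermt3, Shisa5, Smap2 and Hhex (0.997 to 0.998). Hhex, a homeobox gene of lymphoid cells, went from 88.5 to 6.26 normalized CPM in Cre-only cells. Among the members themselves, Tsc22d3 and Tsc22d4 were most alike (r = 0.991) and Tsc22d1 and Tsc22d2 least alike (r = 0.885).

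The partners of the NRBP1-WNK module did not share a direction on activation. Of 12 genes, 11 were tested, and 4 were higher and 4 lower at 3 h, with a median log2 change of -0.19 beside 0.01 over all tested genes. All 13538 tested genes were split in a similar way, with 5652 higher and 5482 lower. Nrbp1, the pseudokinase itself, fell by 0.80 on the log2 scale (edgeR adjusted p = 7.3e-08). Oxsr1, a kinase activated by WNKs, rose by 0.94 (edgeR adjusted p = 4.2e-09). Between genotypes, 0 of 11 passed at rest or at 3 h in edgeR's test.

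Of 8 genes for proteins bound by GILZ, all were tested, and 5 were higher and 3 lower at 3 h, with a median log2 change of 0.37. The same test called 82.2% of all tested genes, and those lower were 40.5% of all. The AP-1 genes Fos and Jun fell, with log2 changes of -6.70 and -5.06 (edgeR adjusted p = 1.8e-07 and 3.8e-09). Nras, a Ras GTPase gene, rose by 0.80 (edgeR adjusted p = 1.1e-07). Rela, the NF-kB p65 gene, rose by 0.32 (edgeR adjusted p = 0.00039), a call lost when the model held a factor for unwanted variation (log2 0.06, edgeR adjusted p = 0.57). Between genotypes, 0 of 8 passed at rest or at 3 h. Fos had a 3-h difference of 2.50 (edgeR adjusted p = 0.11), and without the replicate that stood apart it was 0.56 (edgeR adjusted p = 0.22).

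Among 20 genes of the glucocorticoid receptor and its response, 16 were tested, and 8 were higher and 8 lower at 3 h, with a median log2 change of -0.03. The same test called 82.2% of all tested genes, and those lower were 40.5% of all. Nr3c1, the receptor, fell by 1.58 on the log2 scale (edgeR adjusted p = 3.5e-08). Sgk1, a kinase gene induced by glucocorticoids, fell by 2.44 (edgeR adjusted p = 2.6e-10), the circadian gene Per1 fell by 2.04 (edgeR adjusted p = 6.7e-10) and Rhob, a small GTPase gene, fell by 4.42 (edgeR adjusted p = 3.4e-09). Among those that rose were Fkbp5, another glucocorticoid-induced gene, by 1.83 (edgeR adjusted p = 3.8e-09) and Fkbp4, which like Fkbp5 encodes a cochaperone of the receptor, by 1.92 (edgeR adjusted p = 3.9e-08). Between genotypes, 0 of 16 passed at rest or at 3 h in edgeR's test.

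Of 20 tested FOXO factors and targets, 16 were lower and 4 higher on activation, with a median log2 change of -1.995, where 40.5% of all tested genes were lower. Foxo1 fell by 2.03 on the log2 scale (edgeR adjusted p = 9.2e-10). Cdkn1b, an inhibitor of cyclin-dependent kinases, fell by 2.61 (edgeR adjusted p = 5.9e-10), and S1pr1, a receptor for lymphocyte egress, fell by 2.03 (edgeR adjusted p = 5.8e-10). Gadd45a, a growth arrest gene, fell by 1.84 (edgeR adjusted p = 4.7e-10). The 4 that rose were Il7r, the IL-7 receptor gene, by 5.02 (edgeR adjusted p = 1.7e-07), the transcriptional coregulator gene Cited2 by 1.11 (edgeR adjusted p = 7.5e-08), Bcl2l11, which encodes the pro-apoptotic protein BIM, by 0.98 (edgeR adjusted p = 1.4e-07) and Pik3ip1, an inhibitor of PI3 kinase, by 0.24 (edgeR adjusted p = 0.032). At rest 0 of 20 differed between genotypes in edgeR's test.

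At 3 h, 2 of the 20 FOXO genes differed between genotypes, where 2.77% of all tested genes were called. Gadd45a was 8.20, 6.60 and 7.52 normalized CPM in the Cre-only samples against 17.9, 18.0 and 16.1 in the Runx1 c-k/o samples. The groups did not overlap, and the log2 difference was 1.22 ± 0.10 SE (edgeR adjusted p = 7.2e-05). Pik3ip1 was lower by 0.69 on the log2 scale in Runx1 c-k/o cells (log2 -0.69 ± 0.13 SE, edgeR adjusted p = 0.015). That call was lost without the 3-h Cre-only replicate 1 (log2 -0.52, edgeR adjusted p = 0.059), without the 3-h Runx1 c-k/o replicate 2 (log2 -0.63, edgeR adjusted p = 0.059), and with the 3-h groups alone (edgeR adjusted p = 0.14).

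In the TGF-beta pathway, 22 of 24 genes were tested, and 8 were higher and 8 lower on activation, with a median log2 change of 0.07. The same test called 82.2% of all tested genes, and those lower were 40.5% of all. Smad7, an inhibitor of the pathway, fell by 3.02 on the log2 scale (edgeR adjusted p = 2.6e-10), Smad3, a signal transducer, rose by 2.88 (edgeR adjusted p = 2.1e-09) and the receptor gene Tgfbr1 rose by 1.18 (edgeR adjusted p = 3.4e-08). Tgfbr2, the other receptor gene, had a log2 change of 0.09 (edgeR adjusted p = 0.19).

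Between genotypes, 1 TGF-beta gene was higher and 1 lower at rest, and 2 were higher and 1 lower at 3 h. Of all tested genes, 1.49% were called at rest and 2.77% at 3 h. Ski, a corepressor of SMAD proteins, was higher in Runx1 c-k/o cells at rest by 0.66 (edgeR adjusted p = 0.00076) and at 3 h by 0.36 (edgeR adjusted p = 0.020). Tgfb3, a ligand, was lower at rest (log2 -0.78, edgeR adjusted p = 0.024) and at 3 h (log2 -0.79, edgeR adjusted p = 0.014). Tgfb1, the main ligand of lymphocytes, was 236, 267 and 267 normalized CPM in the Cre-only samples at 3 h against 444, 363 and 348 in the Runx1 c-k/o samples, a log2 difference of 0.59 (edgeR adjusted p = 0.027). The calls of Ski at 3 h, of Tgfb1 at 3 h and of Tgfb3 at rest were each lost with a replicate block (log2 0.36, 0.59 and -0.79, edgeR adjusted p = 0.051, 0.053 and 0.053) and with the groups compared alone in the fit (log2 0.38, 0.60 and -0.80, edgeR adjusted p = 0.13, 0.066 and 0.081). Ski at 3 h was also lost with the total count only (log2 0.33, edgeR adjusted p = 0.075) and with no filter on low counts (log2 0.38, edgeR adjusted p = 0.058).

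These calls also depended on single libraries. At 3 h Ski was lost without any of the 3 Cre-only replicates or without Runx1 c-k/o replicate 2 (edgeR adjusted p = 0.064 to 0.10). Tgfb1 was lost without any of the 6 Cre-only libraries or without the 3-h Runx1 c-k/o replicate 2 (edgeR adjusted p = 0.051 to 0.14). Tgfb3 at 3 h was lost without the Cre-only replicate 1 or 2 of that time (edgeR adjusted p = 0.072 and 0.056), and at rest without any Cre-only replicate or without Runx1 c-k/o replicate 2 or 3 of that time (edgeR adjusted p = 0.054 to 0.13).

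**Figure D4:**
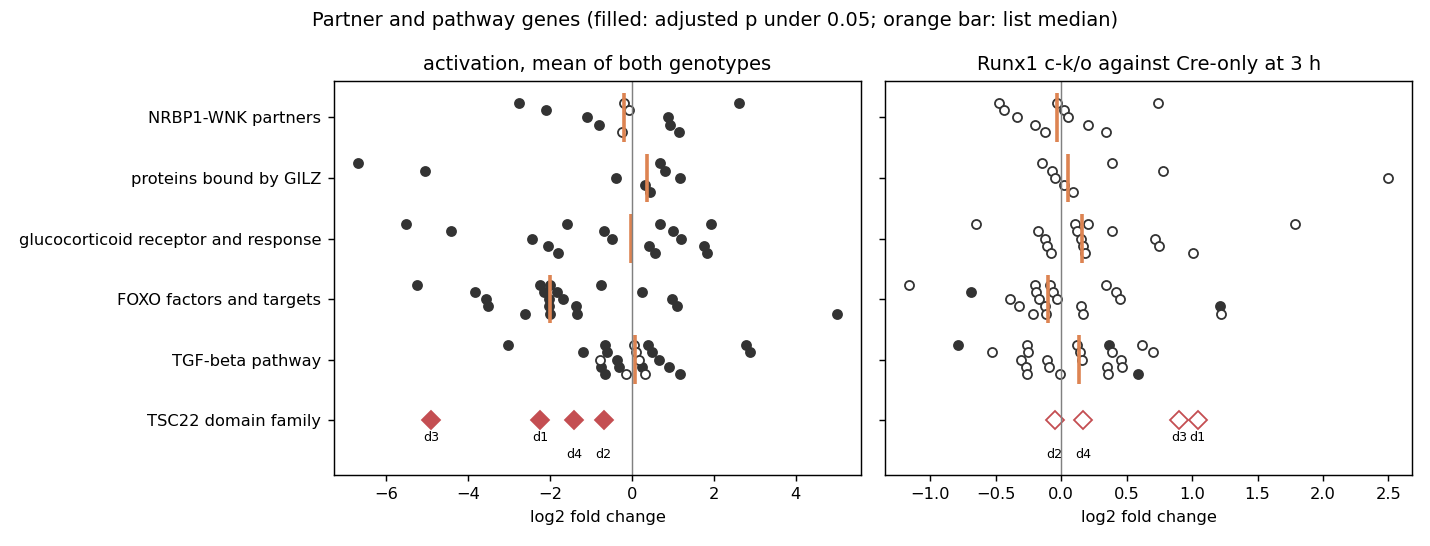
Log2 fold change of each tested gene of the 5 partner and pathway lists and of the 4 family members (diamonds, d1 to d4), for activation averaged over genotypes (left) and for the genotypes at 3 h (right). Filled symbols passed an adjusted p of 0.05, open symbols did not or, for Tsc22d1 at 3 h, were not tested, and orange bars are list medians. The FOXO list has a median of -1.995 on activation, while the other 4 medians lie between -0.19 and 0.37.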

How the data were processed

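Per the submitters' processing notes and the study's methods, reads were aligned by the authors to mm9 (NCBIM37) using TopHat2 2.0.11 and Ensembl annotation, counted per gene with featureCounts, and deposited as raw whole-number counts for 12 samples, without normalization. CASAVA 1.8.4 is also named. The strand setting and the treatment of reads with several alignments were not given in the sources used here. Spike-in RNA was added to the lysates, and the table holds only genes, so CPM is relative to the counted mRNA. Genes were kept by filterByExpr (minimum of 10 counts), which left 13538, and after TMM normalization edgeR 4.0.16 (robust quasi-likelihood, 4 group terms, all 12 samples, R 4.3.3) tested each contrast, with Benjamini-Hochberg adjustment over the 13538 genes and a threshold of 0.05. The study's methods name DESeq2 with factors of unwanted variation but not their number, so DESeq2 1.42.0 with 1 factor was an alternative. Correlations used log2 normalized CPM with a prior count of 2. The members and gene lists were chosen with earlier results of these data known. Besides the members, Runx1 and the gene that opens each list, the genes named were those of each list with the smallest adjusted p past the threshold and no overlap between groups (up to 3 per comparison, up to 2 at rest), and the 5 genes most like each member. Some genes that this rule named are not reported here. Gadd45a in the difference of effects, Fos at 3 h, Fkbp4, Fkbp5 and the 4 FOXO genes that rose were named with their values known. So were the genes compared in the replicate that stood apart (Fos, Klf2, Jun, Rhob, Dusp1 and Csf1r). In simulated counts for 13157 to 13195 genes, edgeR recovered 65.7% (rest) and 76% (3 h) of genotype changes of log2 1.

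The labels number the replicates 1 to 3 in every group. Same-numbered resting and 3-h samples deviated together in Cre-only cells (correlations 0.28, 0.18 and 0.14) but not in Runx1 c-k/o cells (-0.25, -0.26 and 0.25). Differently numbered Runx1 c-k/o samples reached 0.48 (resting replicate 2 with 3-h replicate 1), 0.31 (resting 3 with 3-h 2) and 0.27 (resting 1 with 3-h 3). The remaining such pairs were at 0.08, -0.37 and -0.43, and those of Cre-only cells lay between -0.19 and 0.005. The labels do not say what a number shares, and the replicate blocks followed these numbers, so they may not join related samples. Replicates were described as biological, and p-values measure the spread between these samples.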

Additional observations from a re-analysis of the deposited data

Results flagged for a closer look

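Of Runx1 and the list genes, Gadd45a alone passed the threshold in the difference between the genotype effects at 3 h and at rest. Of all tested genes, 0.0813% passed. Tsc22d1 was not tested in this difference, and the genes most like each member were not looked up in it. That log2 difference was 1.07 (edgeR adjusted p = 0.012), with a genotype difference of 0.15 at rest and 1.22 at 3 h, and all 3 Runx1 c-k/o samples were higher than all 3 Cre-only samples at 3 h.
The call was lost with a replicate block within each genotype (log2 1.08, edgeR adjusted p = 0.15). It was also lost without any of the 3 resting Cre-only replicates, without the 3-h Cre-only replicate 3 or without the 3-h Runx1 c-k/o replicate 2 (edgeR adjusted p = 0.050 to 0.060).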

How the results depend on the processing

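Over 512 combinations of member, comparison and alternative, 497 kept their direction and side of the threshold or, for the untested Tsc22d1 values, kept their direction and moved by less than 1 SD of the replicates. In 6 the sign changed with no call in either, all of them genotype values of Tsc22d2 or Tsc22d4 no larger than 0.087. The total of 512 pools the untested Tsc22d1 values with genotype values that were not called in either fit. It is therefore not a measure of how firm the results are. The activation calls of all 4 members, averaged over genotypes, passed under all 21 alternatives. For Tsc22d2 that log2 change ran from -0.82 with at least 10 counts in every sample to -0.44 with 1 factor of unwanted variation. The log2 change of Tsc22d1 on activation in Cre-only cells was -2.95 with DESeq2 size factors, -2.99 with the total count alone, -3.02 with at least 10 counts in every sample, -2.95 with the DESeq2 Wald test, -3.04 with 1 factor of unwanted variation and -3.15 with both. In Runx1 c-k/o cells it was -1.81 with the factor and -1.87 with both. Leaving out libraries moved the Tsc22d3 difference at 3 h between 0.28 and 1.23, and only without Runx1 c-k/o replicate 3 did it pass. With the length of the longest transcript in place of merged exons, Tsc22d4 ranked 2 and Tsc22d1 3 in resting Cre-only cells, and Tsc22d4 ranked 2 and Tsc22d2 3 at 3 h. Rela had a log2 change on activation of -0.026 with the DESeq2 Wald test and the factor (adjusted p = 0.84).

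Genes called between genotypes numbered 202 at rest, 375 at 3 h and 11 in the difference of effects. The DESeq2 Wald test called 378, 709 and 83, edgeR with 1 factor 497, 956 and 113, and DESeq2 with 1 factor 587, 1162 and 236. The 3-h groups alone gave 158. Leaving out 1 library gave 81 (without the resting Cre-only replicate 2) to 386 (without the 3-h Runx1 c-k/o replicate 1) at rest, 180 (without the 3-h Cre-only replicate 1) to 617 (without the 3-h Runx1 c-k/o replicate 3) at 3 h, and 4 (without the resting Cre-only replicate 1) to 31 (without the 3-h Runx1 c-k/o replicate 1) in the difference. A replicate block over all groups gave 140, 275 and 12 calls, and a replicate block within each genotype gave 4 in the difference. Neither block changed the call of a member. Scaling to the total count moved the median log2 change of all genes on activation from 0.01 to -0.11. The cause of these shifts was not tested. Of the 5 genes most like Tsc22d3, 1 to 4 remained on leaving out a library, and of those most like Tsc22d1, 0 to 4 remained on leaving out a library and 2 with the total count alone.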
